A study of Mus musculus with 6 samples.

Results

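The Nrf2 antioxidant response genes described here are 10 mouse genes, chosen by name: Nfe2l2, Slc7a11, Gclc, Gclm, Gpx2, Gsta4, Txnrd1, Prdx1, Srxn1 and Nqo1. All 10 had a row among the 17564 genes of the authors' deposited table, and all 10 passed the filter on low values. They were measured by bulk RNA sequencing of whole back skin from 8-week-old wild-type C57BL/6 mice. For 3 samples, shaved and depilated skin was painted with 3 µg of SspA, which is protease V8 of staphylococci, and 10 µg of HDM (house dust mite extract) on 2 occasions 3 days apart, and the skin was taken on day 7. For the 3 untreated samples the skin was likewise shaved and depilated, and the day it was taken is not stated. Whether each sample is a different mouse is not stated either, so the tests below weigh differences against a sample-to-sample spread that could be partly technical.

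Nfe2l2 encodes Nrf2, a transcription factor that the adaptor Keap1 marks for destruction in resting cells. When oxidants or reactive chemicals modify Keap1, Nrf2 accumulates, pairs with a small Maf protein and binds antioxidant response elements near genes for glutathione synthesis, thioredoxin reduction and quinone removal. In skin this programme is known for protecting keratinocytes from irritants and ultraviolet light. Much of its control acts on the Nrf2 protein, which RNA levels do not show.

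Slc7a11, which encodes the cystine importer xCT, stood apart from the other members, as its RNA was 7.79-fold higher in SspA/HDM-treated skin (95% interval 5.73 to 10.6). No other member passed the test across the 6 libraries. Of the 10 members, 1 was called higher and 0 lower by limma at adjusted p under 0.05 (2 and 0 at an unadjusted p under 0.05), and edgeR and DESeq2 each called the same numbers, 1 and 0. Over all 15534 genes tested, 9.26% were called higher and 7.23% lower. The median log2 fold change was 0.29 over the 10 members, 0.27 over the 9 members other than Slc7a11, and 0.03 over all genes tested.

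To show what surrounds the start sites of these genes, the promoter windows that RefSeq gives for build GRCm38.p6 (250 bases before to 50 after a start) were searched on both strands for the antioxidant response element core TGACNNNGC and for TGATGNAA, letters shared by elements that the amino acid stress factor ATF4 binds. A window was at hand for 8 of the 10 members, that is all but Gclc and Gsta4. The core was found in 12.4% of all 32851 windows, and 5 of the 8 members had a match in at least 1 of their 10 windows. The first share counts windows and the second counts members, of which Txnrd1 has more than 1 window, so they are not like for like. The matches are printed 5′ to 3′ on the strand that reads TGAC, with the matching letters in capitals, because they are the letters by which this gene group is usually recognised.
Nfe2l2 (chr2:75704885-75704913, minus strand): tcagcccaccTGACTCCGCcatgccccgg
Gclm (chr3:122245413-122245441, minus strand): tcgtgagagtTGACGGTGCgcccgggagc
Prdx1 (chr4:116685456-116685484, minus strand): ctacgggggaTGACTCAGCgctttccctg
Srxn1 (chr2:152105542-152105570, minus strand): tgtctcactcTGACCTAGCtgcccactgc
Txnrd1 (chr10:82859104-82859132, minus strand): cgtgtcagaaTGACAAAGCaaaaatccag
The Srxn1 match lies after the start site, and the Txnrd1 match lies before a start other than that of the transcript counted in the table. The Slc7a11 window, which lies at the start of the transcript counted in the table, had no match to this core. RefSeq has the Slc7a11 gene reach further upstream, to position 50499087, and no window there was searched. The window searched had 2 matches to the ATF4-type letters, which 3.97% of all windows held at least once and 0.07% held more than once. The 250 bases before its start are shown with both matches in capitals, the second of them on the opposite strand, because Slc7a11 is the member whose RNA rose.
Slc7a11 (chr3:50443614-50443863, minus strand): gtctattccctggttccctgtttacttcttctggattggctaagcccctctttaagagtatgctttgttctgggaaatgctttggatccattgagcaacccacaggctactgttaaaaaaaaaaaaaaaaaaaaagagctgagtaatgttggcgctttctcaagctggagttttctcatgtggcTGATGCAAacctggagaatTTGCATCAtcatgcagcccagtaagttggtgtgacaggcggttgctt
A match is a run of letters only, and binding was not measured. Both motifs were chosen with earlier results of these data known. The matches and their shares are therefore a description, and the part of either factor in the RNA levels was not tested.

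The libraries held between 4928245 reads (untreated replicate 2) and 7545567 reads (treated replicate 3). The authors scaled them to near-equal totals, and levels are given below in these scaled reads, in which 1 read was worth 0.84 to 1.29. No gene had more than 0.923 reads per base of transcript in any library (the highest gene of each library had 0.860 to 0.923). Whether the counting took at most 1 read per position is not given, and if it did, levels and fold changes of abundant genes would be compressed, which was not tested. In bulk skin, fewer cells of a type and less RNA per cell cannot be told apart. The basal keratinocyte genes Krt5 and Krt14, the dermal collagen gene Col1a1 and the other fixed skin markers were detected in both groups, while the inner root sheath keratin gene Krt72 and the neutrophil gene Ly6g were at 0 in all 3 untreated libraries. Neutrophil, inner root sheath and melanocyte marker genes were higher in treated skin, with 5 of 5, 6 of 6 and 5 of 5 tested markers called. The neutrophil marker Elane, too low to be tested, averaged 4.79 scaled reads in treated and 5.43 in untreated skin, and its groups overlapped.

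Slc7a11 (mm10 chromosome 3, 50364936 to 50443613, minus strand) had 1470, 912 and 870 scaled reads in treated replicates 1, 2 and 3, against 121, 157 and 127 in untreated replicates 1, 2 and 3. The lowest treated library lay 5.54-fold above the highest untreated one, and replicate 1 was the highest of the treated libraries. The means were 1084 ± 335 and 135 ± 19.3 scaled reads (SD, n = 3 each), and the log2 fold change was 2.96 ± 0.20 SE (limma, adjusted p = 3.91e-04). By p it ranked 3 of the 15534 genes tested, and by log2 fold change it ranked 78. In the authors' deposited table its log2 fold change was 2.96 with adjusted p = 1.03e-44, the smallest p of that table. It was called under all 16 alternatives, with log2 fold changes of 2.72 to 3.21.

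**Figure D1:**
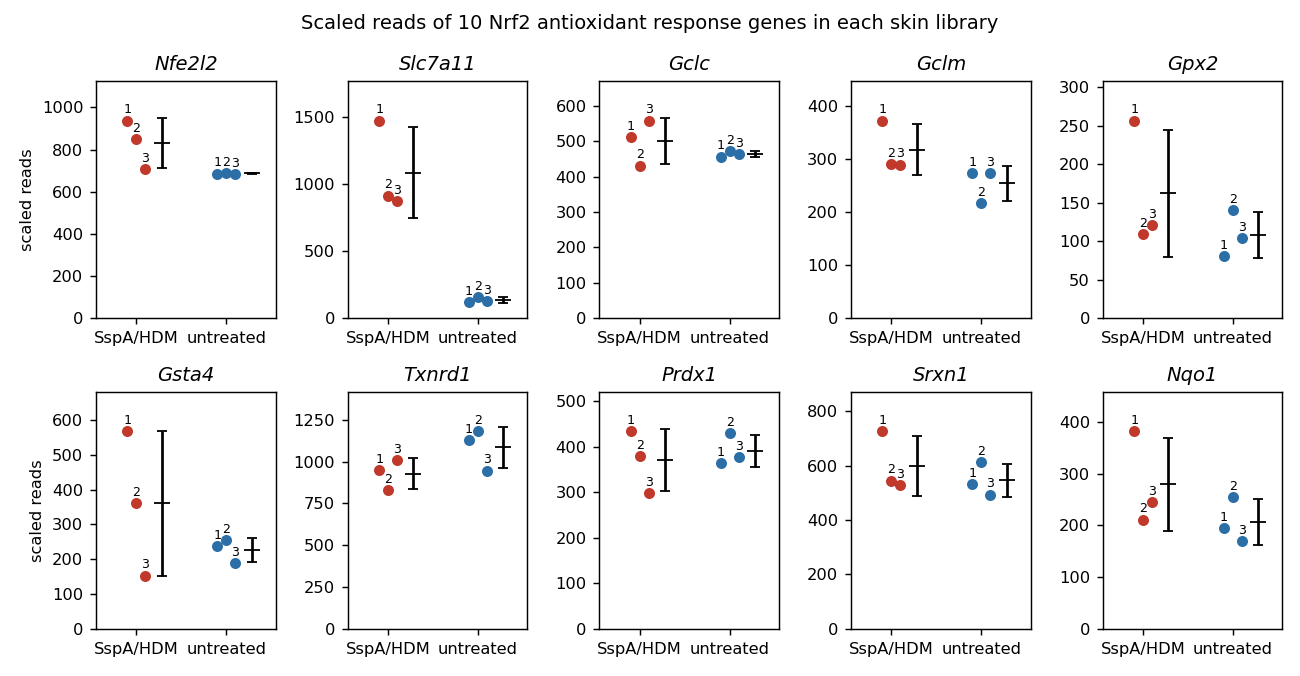
Scaled reads (y axis, from 0) of each of the 10 genes in the 3 SspA/HDM-treated (red) and 3 untreated (blue) libraries, with replicate numbers above the points and the mean with its SD as a black bar. The Slc7a11 panel has 870 to 1470 scaled reads in treated and 121 to 157 in untreated libraries, and in 7 of the other 9 panels the points of the groups overlap.

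Slc7a11 is also known from pigment cells, where cystine import feeds red-yellow melanin (loss of the gene is the subtle gray coat mutation), and from activated myeloid cells. The summed level of the 5 melanocyte markers Dct, Tyr, Tyrp1, Pmel and Mlana was 1562 to 2041 scaled reads in treated and 465 to 573 in untreated libraries, with no marker at 0 in either group. In treated replicates 1, 2 and 3 this sum was 1677, 1562 and 2041 scaled reads. The 7 neutrophil markers summed to 3104, 2523 and 931 scaled reads in treated replicates 1, 2 and 3. In untreated libraries they summed to 306 to 475, and Ly6g was at 0 there. The 11 monocyte and macrophage markers, of which 3 were called higher, summed to 6207 to 8320 scaled reads in treated and 4680 to 5991 in untreated libraries, with no marker at 0. The part of any of these cells in the Slc7a11 result was not tested.

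Slc3a2, whose protein 4F2hc is the partner chain of xCT in the membrane, had 702, 668 and 558 scaled reads in treated and 660, 672 and 639 in untreated replicates 1 to 3, groups that overlap (log2 fold change -0.04 ± 0.10 SE, limma, adjusted p = 0.829). Chac1, which degrades glutathione and is often induced in cells short of cystine, had a log2 fold change that rounds to 0 (adjusted p = 0.998).

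The gene of the regulator itself, Nfe2l2 (chromosome 2, 75675513 to 75704663, minus strand), had 937, 849 and 706 scaled reads in treated replicates 1 to 3, against 686, 690 and 684 in untreated replicates 1 to 3. The untreated libraries were almost alike and the treated ones lay above them, replicate 3 by little. The log2 fold change was 0.27 ± 0.10 SE and did not pass (limma, adjusted p = 0.115). Without treated replicate 3 Nfe2l2 was called higher, at adjusted p = 0.0137, and at adjusted p = 0.0138 with both treated replicate 3, the deepest library, and untreated replicate 2, the shallowest, left out. Nfe2l2 averaged 0.282 reads per base of transcript. Over the 3003 genes with more than 0.2 reads per base, treated replicate 3 had a median log2 difference of -0.15 from the other 2 treated libraries, against 0.07 over the 12531 genes below that limit. For Nfe2l2 the same difference was -0.34, and the part of depth in it was not tested.

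Both subunits of glutamate-cysteine ligase, the rate-limiting enzyme of glutathione synthesis, missed the threshold. The modifier subunit gene Gclm (chromosome 3, 122245557 to 122267215, plus strand) had 372, 291 and 289 scaled reads in treated and 274, 216 and 273 in untreated replicates 1 to 3. Its groups did not overlap, but the difference was small beside the spread (log2 fold change 0.32 ± 0.14 SE, limma, adjusted p = 0.163). The catalytic subunit gene Gclc (chromosome 9, 77754535 to 77794489, plus strand) had 512, 431 and 559 scaled reads in treated and 457, 472 and 464 in untreated replicates 1 to 3. Its groups overlapped, and the 95% interval of its log2 fold change ran between -0.13 and 0.34 (adjusted p = 0.554).

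Glutathione is spent by peroxidases and transferases, of which Gpx2 and Gsta4 are the members here. Gpx2 (chromosome 12, 76792335 to 76795554, minus strand), a selenium-dependent peroxidase of epithelia, had 257, 109 and 121 scaled reads in treated and 80.2, 140 and 105 in untreated replicates 1 to 3. Treated replicate 1 was high, and the other 2 treated libraries lay inside the untreated range (log2 fold change 0.50 ± 0.33 SE, limma, adjusted p = 0.333). Without that replicate the Gpx2 log2 fold change was 0.12. Gsta4 (chromosome 9, 78191966 to 78209349, plus strand), which conjugates the lipid peroxidation product 4-hydroxynonenal, had 568, 360 and 153 scaled reads in treated and 237, 255 and 189 in untreated replicates 1 to 3. The treated libraries were both the highest and the lowest of the 6, and the test over all of them was not passed (log2 fold change 0.48 ± 0.39 SE, adjusted p = 0.441). Gsta4 was called higher without treated replicate 3 (log2 fold change 1.00, adjusted p = 0.0117) and without both the deepest and the shallowest library (adjusted p = 0.0090), while without treated replicate 1 its log2 fold change was 0.06. Gsta4 averaged 0.280 reads per base, and treated replicate 3 differed from the other 2 treated libraries by -1.56 on the log2 scale. Its reads may be shared with related transferase genes.

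The thioredoxin branch had no member that limma, edgeR or DESeq2 called. Txnrd1 (chromosome 10, 82833951 to 82897724, plus strand), the cytosolic thioredoxin reductase, had 949, 829 and 1007 scaled reads in treated and 1130, 1181 and 946 in untreated replicates 1 to 3. Its log2 fold change was the lowest of the 10, at -0.22 ± 0.11 SE (limma, adjusted p = 0.187), and treated replicates 1 and 3 lay above untreated replicate 3, so the groups overlapped. Reads of Txnrd1 are uncertain where it overlaps Eid3 and Gm38560, as are those of Gclm where it overlaps Gm6061 and of Prdx1 where it overlaps AV051173, since the use of strand in counting is not given. Prdx1 (chromosome 4, 116685599 to 116700000, plus strand), a peroxiredoxin that removes hydrogen peroxide, had 434, 380 and 299 scaled reads in treated and 364, 430 and 377 in untreated replicates 1 to 3. Srxn1 (chromosome 2, 152105524 to 152111376, plus strand), the sulfiredoxin that repairs overoxidised peroxiredoxins, had 726, 545 and 527 scaled reads in treated and 532, 612 and 493 in untreated replicates 1 to 3. Both genes overlapped between the groups, with 95% intervals of the log2 fold change between -0.40 and 0.23 for Prdx1 (adjusted p = 0.726) and between -0.18 and 0.43 for Srxn1 (adjusted p = 0.577).

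Nqo1 (chromosome 8, 107388225 to 107403205, minus strand), the quinone reductase most often used to read out Nrf2 activity, had 382, 211 and 245 scaled reads in treated and 196, 255 and 169 in untreated replicates 1 to 3. Treated replicate 1 again stood highest and the other treated libraries lay within the untreated range. The log2 fold change was 0.41 ± 0.23 SE (95% interval -0.11 to 0.92, limma, adjusted p = 0.261), and without treated replicate 1 it was 0.16.

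**Figure D2:**
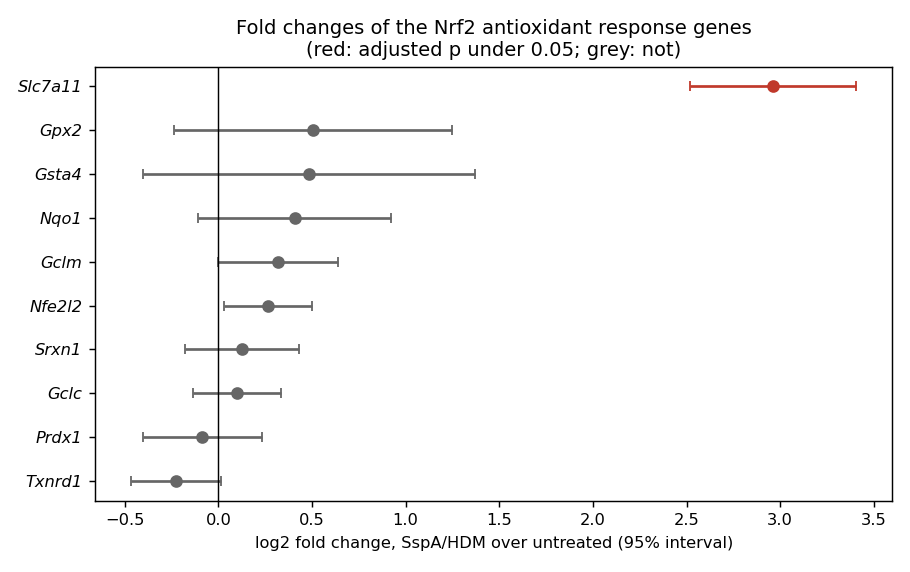
Log2 fold change of SspA/HDM-treated over untreated skin (x axis, points) with the 95% interval from limma (bars) for each of the 10 genes (y axis), in red where called and grey where not. The interval of Slc7a11, 2.52 to 3.41, lies above those of the other 9 genes, whose highest bound is 1.37 (Gsta4).

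The treated libraries were unlike one another. Of the 10 members, 8 had their highest value of the 6 libraries in treated replicate 1, which was so for 22.4% of all genes tested. The exceptions were Gclc, highest in treated replicate 3, and Txnrd1, highest in untreated replicate 2. Relative to the untreated mean, treated replicate 1 stood 0.91 higher for Nqo1, 1.27 for Gpx2 and 1.33 for Gsta4 on the log2 scale, whereas treated replicate 3 stood at 0.26, 0.19 and -0.55 for these 3 genes. Treated replicate 1 was also the highest library for all 5 tested neutrophil markers and for 3 of the 4 wound-type keratin genes, which summed to 4965 scaled reads there, 4583 and 3278 in the other 2 treated libraries, and 3611 to 3779 in untreated ones. The same held for 3 of the 5 basal keratinocyte markers, which summed to 10126, 9603 and 7850 scaled reads in treated replicates 1 to 3. In untreated libraries the basal markers summed to 9556 to 10028. Other lists went otherwise. Treated replicate 1 was highest for 0 of 6 tested inner root sheath, 0 of 5 melanocyte and 0 of 11 monocyte and macrophage markers. The inner root sheath markers summed to 1912, 732 and 4231 scaled reads in treated replicates 1 to 3. The wound-type keratin genes averaged 0.355 to 0.715 reads per base, above the limit of 0.2 over which treated replicate 3 ran low. The part of depth in their order was not tested, nor whether members and markers go together in the same cells. For Slc7a11, Nfe2l2 and Gclm, 3 of the 10 members, no treated value fell within the untreated range or the reverse, as was the case for 37.3% of all genes tested.

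**Figure D3:**
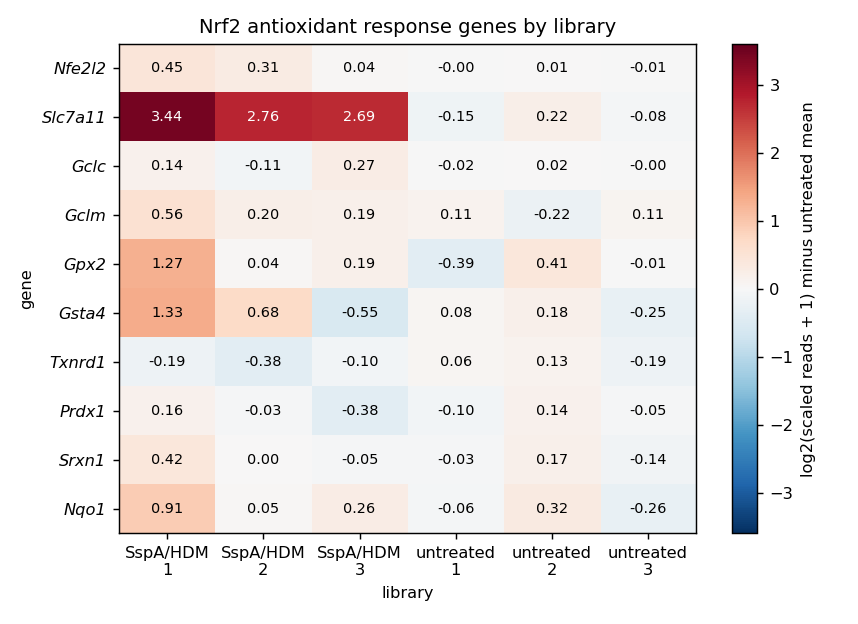
Difference of each library's log2(scaled reads + 1) from the untreated mean (colour and printed value) for the 10 genes (rows) in the 3 SspA/HDM-treated and 3 untreated libraries (columns). Slc7a11 stands at 3.44, 2.76 and 2.69 in the treated libraries, while the next highest values, 1.33 for Gsta4 and 1.27 for Gpx2, are both in treated replicate 1.

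Levels of different genes were set side by side per kilobase of transcript, with the limit that abundant genes may be compressed as said above. Slc7a11 had the lowest level of the 10 in both groups, at 118 ± 36.4 scaled reads per kilobase in treated and 14.7 ± 2.09 in untreated skin (SD, n = 3 each). In untreated skin the next gene up, Gpx2, stood at 102 ± 28.4 scaled reads per kilobase with no overlap of the libraries. In treated skin the ranges of Slc7a11 and its neighbour Gclc (139 ± 17.9 scaled reads per kilobase) overlapped, as did those of every other neighbouring pair. The highest mean levels in untreated skin were those of Txnrd1 (300.2 ± 34.1), Prdx1 (277 ± 24.7) and Nfe2l2 (276 ± 1.15 scaled reads per kilobase), a set whose ranges overlap from one gene to the next. Gsta4 had the highest mean in treated skin, 380 ± 219 scaled reads per kilobase, and ranged between 161 and 598.

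Other genes of oxidant defence and Nrf2 control were taken from 9 lists. They hold 114 entries; 113 were found in the table and 109 passed the filter. Of these 109, 9 (8.26%) were called higher and 8 (7.34%) lower, and their median log2 fold change was -0.07, against 0.03 over all genes tested. With edgeR 7 were called higher and 9 lower (1249 and 1204 over all genes). With DESeq2 they were 7 and 11 (1247 and 1336 over all genes). In the authors' deposited table, 7 of the 113 were higher and 11 lower at adjusted p under 0.05. By limma over the 6 libraries, the shares of 8.26% and 7.34% are near those of all genes, 9.26% and 7.23%. The counts also depended on single libraries. Without treated replicate 3, 16 were called higher and 7 lower, and Gsr, Hmox1, Glrx and Akr1b8 were among those added. Without treated replicate 1 the counts were 3 higher and 5 lower, and without treated replicate 2 they were 2 and 4. Without untreated replicate 1, 2 or 3 they were 2, 3 and 6 higher and 4, 4 and 5 lower. The count over all genes moved too, between 597 and 1389 higher and between 518 and 1333 lower.

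Around glutathione, 1 of 16 tested genes of synthesis, recycling and peroxidases rose, namely Gpx7, a peroxidase of the endoplasmic reticulum, with 193, 201 and 206 scaled reads in treated and 130, 108 and 155 in untreated replicates 1 to 3. All treated values lay above the untreated ones (log2 fold change 0.63 ± 0.15 SE, limma, adjusted p = 0.0264). The call did not hold without treated replicate 1 or 2 or untreated replicate 1 or 2 (adjusted p 0.0601 to 0.0856). Gsr, which regenerates glutathione, had 561, 511 and 341 scaled reads in treated and 364, 401 and 366 in untreated replicates 1 to 3. It did not pass over the 6 libraries (adjusted p = 0.277) but did without treated replicate 3 (adjusted p = 0.0096). Gpx4, the peroxidase that guards membrane lipids, had a log2 fold change of -0.34 ± 0.17 SE (adjusted p = 0.196).

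Glutathione S-transferase genes moved in both directions, with 3 of 17 tested higher and 2 lower. Gsta3 averaged 119 ± 27.5 scaled reads in treated and 305 ± 72.8 in untreated skin (SD, n = 3 each; log2 fold change -1.35 ± 0.22 SE, adjusted p = 0.0063). Gstz1, which also acts in tyrosine breakdown, fell as well (510 ± 32.6 in treated and 729 ± 87.1 in untreated skin, log2 fold change -0.51, adjusted p = 0.0122), and both calls held under all 16 alternatives. Gstt2 (log2 fold change 1.06, adjusted p = 0.0277), Gstm6 (0.85, adjusted p = 0.0409) and Gsto1 (0.50, adjusted p = 0.0222) rose over the 6 libraries. Gstt2 was not called without any 1 of treated replicates 1 to 3 or untreated replicates 1 and 2 (adjusted p 0.0547 to 0.0692), Gstm6 without any library but untreated replicate 2 (0.0806 to 0.106), and Gsto1 without treated replicate 1 or 2 or untreated replicate 1 or 2 (0.0533 to 0.0771). Gstm, Gstp and Gsta genes have close relatives, and their counts are uncertain where reads are shared.

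In the thioredoxin and peroxiredoxin list 0 of 13 tested genes were called by limma (1 at an unadjusted p under 0.05) and 0 by edgeR or DESeq2, and Txn1, thioredoxin itself, had 263 ± 51.2 scaled reads in treated and 259 ± 23.2 in untreated skin. Of the 7 genes that supply NADPH, 1 fell, namely Me1, the cytosolic malic enzyme, with 728, 702 and 681 scaled reads in treated and 965, 1097 and 908 in untreated replicates 1 to 3. Its groups were apart (log2 fold change -0.49 ± 0.09 SE, limma, adjusted p = 0.0087), and the call held under all 16 alternatives. Me1 also serves fat synthesis, and sebaceous gland and adipocyte markers were lower in treated skin, with 4 of 6 and 3 of 6 called. Their sums were 1762 to 2774 and 3597 to 4353 scaled reads in treated, against 3166 to 4259 and 4979 to 6255 in untreated libraries, with none of these markers at 0, and their part in the Me1 result was not tested. G6pdx, the entry enzyme of the pentose phosphate pathway, had a log2 fold change of -0.08 ± 0.10 SE (adjusted p = 0.625).

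Among 16 tested genes that handle quinones, aldehydes and conjugates, 3 fell and 0 rose by limma (1 higher at an unadjusted p under 0.05, and 0 higher by edgeR or DESeq2). These were Ephx1, a microsomal epoxide hydrolase (394 ± 13.2 in treated and 514 ± 33.2 scaled reads in untreated skin, log2 fold change -0.38, limma, adjusted p = 0.0188), and the aldehyde dehydrogenase genes Aldh3a1 (-0.37, adjusted p = 0.0319) and Aldh1a1 (-0.38, adjusted p = 0.0432). Ephx1 was not called without treated replicate 1 or 2 or untreated replicate 2 or 3 (adjusted p 0.0531 to 0.0719). Aldh3a1 was not called without treated replicate 1 or 2 or untreated replicate 1 or 3 (0.0851 to 0.116), and Aldh1a1 without any library but untreated replicate 3 (0.0815 to 0.108). Hmox1, the inducible haem oxygenase and an Nrf2 and Bach1 target, had 581, 618 and 445 scaled reads in treated and 470, 389 and 357 in untreated replicates 1 to 3. Of the 7 genes of haem breakdown and iron storage, 0 were called by limma (3 at an unadjusted p under 0.05) and 0 by edgeR or DESeq2, and the log2 fold change of Hmox1, 0.43 ± 0.14 SE, did not pass (adjusted p = 0.0742). Hmox1 was called higher without treated replicate 3 (adjusted p = 0.0154) and without both the deepest and the shallowest library (adjusted p = 0.0232).

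Of 16 tested genes of Nrf2 control, 2 rose and 1 fell by limma. By edgeR 1 rose and 1 fell, and by DESeq2 1 rose and 2 fell. Bach1, a repressor that competes for the same elements, had 957, 1042 and 1116 scaled reads in treated and 892, 774 and 838 in untreated replicates 1 to 3 (log2 fold change 0.31 ± 0.09 SE, limma, adjusted p = 0.0388). The Bach1 call held in 5 of 16 alternatives, and was lost without any 1 library but treated replicate 1 (adjusted p 0.0626 to 0.119). Nfe2, a relative of Nrf2 known from blood cells, averaged 35.4 ± 18.1 scaled reads in treated and 8.40 ± 3.49 in untreated skin (log2 fold change 1.86, adjusted p = 0.0326), and was not called without any 1 library but treated replicate 3 (0.0522 to 0.116). Cul3, the ligase scaffold that works with Keap1, was lower (1031 ± 38.6 in treated and 1244 ± 48.7 scaled reads in untreated skin, log2 fold change -0.27, adjusted p = 0.0303), and was not called without treated replicate 2 or any untreated replicate (0.0683 to 0.118). Keap1 (log2 fold change -0.18, adjusted p = 0.183), the small Maf gene Mafg (0.04, adjusted p = 0.799) and Sqstm1, whose protein p62 draws Keap1 into autophagy (-0.27, adjusted p = 0.0819), did not pass.

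The 4 genes that remove superoxide and hydrogen peroxide, Sod1, Sod2, Sod3 and Cat, all had lower values in every treated than in every untreated library, with log2 fold changes between -0.38 and -0.22, but 0 passed by limma, edgeR or DESeq2 (lowest limma adjusted p = 0.102; 4 had an unadjusted p under 0.05). Of all genes tested, 15.6% had every treated value below every untreated one. An unadjusted p under 0.05 (limma) was held, in either direction, by at least 4855 of the 15534 genes tested. The 6 skeletal muscle markers were likewise lower in every treated library, with 1 of 6 called, a median log2 fold change of -0.34 and none at 0. They summed to 19803 to 22334 scaled reads in treated and 24929.6 to 30622 in untreated libraries. The adipocyte marker sums given above were lower in treated skin too, and the part of either tissue in these 4 genes was not tested. Among sources of oxidants, 3 of 13 tested genes rose and 1 fell. The subunits and activator of the phagocyte NADPH oxidase Cybb (629 ± 112 in treated and 318 ± 74.1 scaled reads in untreated skin, log2 fold change 0.99, adjusted p = 0.0105), Ncf1 (0.86, adjusted p = 0.0223) and Rac2 (1.02, adjusted p = 0.0095) rose. Ncf1 was not called without treated replicate 1 or 2 or untreated replicate 1 or 2 (adjusted p 0.0612 to 0.0767). The neutrophil and monocyte marker sums given above were higher in treated skin too, and their part in these values was not tested. Duox2, an epithelial oxidase at low level, had 15.8, 15.3 and 10.1 scaled reads in treated and 50.6, 43.7 and 27.3 in untreated replicates 1 to 3 (log2 fold change -1.48, adjusted p = 0.0184), and was not called without untreated replicate 1 or 2 (0.061 to 0.0746).

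**Figure D4:**
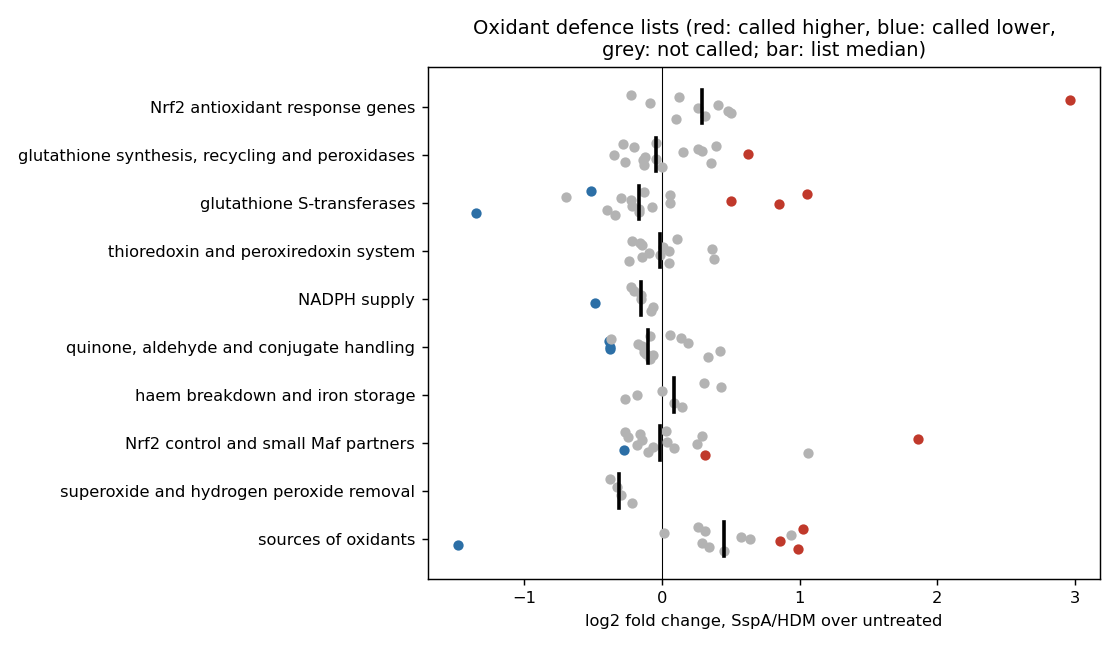
Log2 fold change of SspA/HDM-treated over untreated skin (x axis) for each tested gene (points) of the 10 Nrf2 antioxidant response genes and of 9 further lists (rows), in red where called higher, blue where called lower and grey where not called, with the list median as a black bar. Slc7a11, at 2.96, is the point farthest to the right, and the medians of the other lists lie between -0.31 and 0.45.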

How the data were processed

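Per the labels' protocols, RNA of whole skin went into stranded mRNA libraries, 6 in all. The submitters' processing notes name bcl2fastq 2.20.0.422, STAR, DESeq2 and build mm10. The sources used here do not say which counter was used, how it treated strand or what was filtered. The authors deposited a scaled signal per gene and library, transcript lengths, log2 fold changes, p-values and adjusted p-values. All values (100%) were within 0.1 of a whole number of reads, and the reads so recovered numbered 5606959, 5821622 and 7545567 in treated and 5770072, 4928245 and 5580401 in untreated replicates 1 to 3. Because the values are scaled, limma 3.58.1 (trend in the spread, R 4.3.3) was run on log2(value + 1) in place of a count test, for genes kept by filterByExpr of edgeR 4.0.16 (minimum count 10, minimum total 15), with Benjamini-Hochberg adjustment over all of them. Changes of low genes are understated on this scale.

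Members, lists and motifs were chosen with earlier results of these data known. The genes named are all members, 12 regulators and enzymes whatever their result, and the called genes of each list. Chac1, Sod1, Sod3, Glrx and Akr1b8 fall outside this rule and were chosen after their values were seen. RefSeq promoter windows were matched by symbol. The 16 alternatives were edgeR's quasi-likelihood test and DESeq2 1.42.0 on recovered reads, TMM scaling, pseudocounts of 0.5 and 5, no filter or a mean of at least 1 CPM, no trend in the spread, a replicate block, leaving out the deepest and shallowest library together, and leaving out each library. The limma steps were tested on simulated data. Figures were drawn with matplotlib 3.10.9.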

Additional observations from a re-analysis of the deposited data

How the results depend on the processing

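Slc7a11 kept its direction and its call under all 16 alternatives, with adjusted p between 1.66e-44 and 0.0053. Of 160 pairs of a member and an alternative, 4 changed a call, namely Nfe2l2 and Gsta4 without treated replicate 3 and without the deepest and shallowest libraries, and 3 members were then higher in each. Marker genes and the genes under other observations below were not followed gene by gene in this way. Among the members and the called genes of the 9 other lists, none that was called changed sign under these alternatives. Small changes that were not called did change sign. The log2 fold change was 0.13 for Prdx1, 0.30 for Chac1, 0.049 for G6pdx and 0.076 for Slc3a2 without the deepest and shallowest libraries. For Txn1 it was -0.016, -0.020 and -0.027 with edgeR, DESeq2 and TMM scaling. Leaving out single libraries gave -0.021 to 0.21 for Srxn1, -0.21 to 0.062 for Prdx1, -0.31 to 0.27 for Chac1, -0.11 to 0.060 for Slc3a2 and -0.13 to 0.16 for Txn1. Leaving out single libraries gave 597 to 1389 higher and 518 to 1333 lower genes in all, 1 to 3 higher and 0 lower members (limma), and 2 to 16 higher and 4 to 7 lower genes of the other lists. With limma without a trend in the spread, 922 genes were higher and 640 lower in all, 5 genes of the other lists were higher, and Aldh1a1, Aldh3a1, Bach1, Cul3, Gsto1, Ncf1 and Nfe2 were not called. Without the deepest and shallowest libraries, 1330 genes were higher and 1375 lower in all. In the other lists 16 genes were then higher and 5 lower, and Aldh1a1, Bach1, Cul3, Duox2, Gpx7 and Gstt2 were not called. Bach1 and Gstm6 were not called by edgeR or DESeq2, nor Bach1 with TMM scaling. The cause of these shifts was not tested, though tests on fewer samples also have fewer values. Same-numbered samples of the groups did not deviate together (correlations of -0.085, -0.055 and 0.054), and with the replicate block 1348 genes were higher and 1096 lower in all, 9 and 7 in the other lists and 1 and 0 among members, Bach1, Cul3 and Gstm6 losing their calls and Hmox1 gaining one (adjusted p = 0.0334). TMM scaling moved the median log2 fold change of all genes to -0.00076, against 0.03. Few reads kept Gsta1, Abcc2, Mpo and Duoxa2 from being tested.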

Other observations

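Values of relatives of Slc7a11 and of genes known to respond to amino acid shortage through ATF4 were looked up after the Slc7a11 result was seen, so they are given as a description. Of 13 other SLC7 amino acid transporter genes, 9 passed the filter, with log2 fold changes between -0.54 (Slc7a10) and 0.98 (Slc7a3), all below the 2.96 of Slc7a11. By limma, 3 of these 9 were called higher and 1 lower, against 9.26% and 7.23% of all genes tested. Only the called ones are given with their means here, and Slc7a5 (adjusted p = 0.0465) and Slc7a6 (adjusted p = 0.0453) passed narrowly. Slc7a8, a neutral amino acid transporter, averaged 292 ± 46.1 scaled reads in treated and 170.0 ± 12.4 in untreated skin (SD, n = 3 each). Slc7a5, the large neutral amino acid transporter LAT1, averaged 595 ± 129 scaled reads in treated and 411 ± 21.2 in untreated skin. The cationic amino acid transporter gene Slc7a1 averaged 893 ± 88.5 scaled reads in treated and 623 ± 27.8 in untreated skin. Slc7a6, by contrast, averaged 620.4 ± 70.8 scaled reads in treated and 792 ± 61.6 in untreated skin. Of 12 genes linked to amino acid stress, the log2 fold changes ran between -0.59 (Vldlr) and 0.93 (Trib3), with a median of 0.07. By limma 1 of the 12 was called higher (Trib3) and 1 lower (Vldlr). Trib3, a pseudokinase, had 218, 206 and 197 scaled reads in treated and 111, 96.5 and 118 in untreated replicates 1 to 3, while Asns, asparagine synthetase, averaged 397 ± 55.4 in treated and 411 ± 8.63 in untreated skin, and Atf4 itself 717 ± 83.2 in treated and 783 ± 62.3 in untreated skin.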
